A study of Mus musculus with 9 samples.

Results

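Germinal centre B-cell genes were taken as 9 named mouse genes, Rgs13, S1pr2, Gcsam, Mybl1, Mef2b, Lmo2, Neil1, Efnb1 and Fas. They were found as all probe sets of the array whose annotated symbol is exactly one of these names, which gave 14 of 45037 probe sets tested, for 9 of 18193 genes with a probe set of their own. A probe set is a group of short probes on the array read as 1 value. Among the members 5 genes had 1 probe set, 3 had 2 and 1 had 3. The tested samples were 5 splenic lymphomas (labelled lymphoma) of mice that carry the Sca1-MALT1 transgene, and they were set against 4 spleens of wild-type (WT) mice labelled as healthy controls. Each frozen tissue gave total RNA for 1 array. Sca1 marks blood stem and progenitor cells, and MALT1 is a protease and scaffold that carries antigen receptor signals to NF-kB. The labels name no strain, age, sex or promoter segment of the transgene. They also do not say whether each sample of a group is from its own mouse, so the p-values cover the spread between these samples only, which may be technical.

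A germinal centre is a temporary structure of the B-cell follicle in which B cells divide, mutate their antibody genes and compete for help from T cells and antigen held by follicular dendritic cells. Germinal centre B cells switch on a small gene programme that keeps them in the follicle centre, tunes their receptor signals and prepares them for repair of DNA or for death. Some of its genes, such as Rgs13 and S1pr2, are fairly specific to this stage within the B lineage, whereas Fas, Efnb1 and Lmo2 also serve other cells of the spleen. Whole tissue was measured, so fewer cells of a type and less RNA per cell cannot be told apart.

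Promoter sequence is shown for Rgs13, the member with the largest difference between the groups, and for Mef2b, which encodes a transcription factor of the programme, because these were the only member promoters that held a searched motif. RefSeq promoter entries (build GRCm38.p6) matched 7 of the 9 members, and the 250 bases before the gene start were searched on both strands. The searched motifs, chosen after the expression values were seen, were the octamer ATGCAAAT of B-cell promoters, the kB motif of NF-kB and the MEF2 motif, and no matches overlapped each other. The first sequence lies at chr1:144177373-144177622 on the minus strand and the second at chr8:70152511-70152760 on the plus strand, and capitals mark the motif.
Rgs13: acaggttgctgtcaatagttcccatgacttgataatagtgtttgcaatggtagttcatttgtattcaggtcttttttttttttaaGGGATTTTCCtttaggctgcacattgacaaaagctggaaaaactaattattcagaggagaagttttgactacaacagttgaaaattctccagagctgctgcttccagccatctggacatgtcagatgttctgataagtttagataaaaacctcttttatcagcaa
Mef2b: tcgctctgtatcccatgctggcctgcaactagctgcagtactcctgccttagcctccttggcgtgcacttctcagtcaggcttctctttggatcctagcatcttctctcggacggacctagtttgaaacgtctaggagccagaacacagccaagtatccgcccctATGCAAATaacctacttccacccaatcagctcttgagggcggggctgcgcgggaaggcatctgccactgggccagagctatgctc

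The kB motif stood 165 to 156 bases before the Rgs13 start and was present in 1 of the 7 member promoters, against 7.25% of 32851 promoter entries. The octamer stood 85 to 78 bases before the Mef2b start, also in 1 of 7, against 1.60% of the entries. The MEF2 motif was found in 0 of 7, against 0.508% of the entries. A match describes letters only and no binding was measured.

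No member was called different between lymphomas and WT spleens, and the members split almost evenly between higher and lower means. All values are deposited RMA values on the log2 scale, all differences are lymphoma minus WT, and the test was limma over all 45037 probe sets with Benjamini-Hochberg adjustment, with a call at an adjusted p under 0.05. Limma called 0 of the 14 member probe sets, where 0.486% of all probe sets were called (110 genes, 0.605%, on the highest-mean probe set of each gene). At a limma p under 0.05 before adjustment, called the nominal threshold here, 1 member probe set was lower, that of the transcription factor gene Mybl1, and 0 were higher, where 8.76% of all probe sets were lower and 5.15% higher. An unequal-variance test had the same probe set lower at that threshold, where 3419 of all 45037 probe sets were lower. It called 0 of all probe sets, so its 0 member calls say nothing about the members. The groups overlapped on all 14 member probe sets, where 6.47% of all probe sets had groups without overlap. Of the 14 differences 7 were positive and 7 negative, and their median was -0.0037, against -0.010 over all probe sets. The count of 1 lower member changed with some single arrays left out: it was 0 without WT spleen 3, and 2 (Rgs13 and Mybl1) without lymphoma 1 or lymphoma 3. It stayed at 1 without any other single array. Over all probe sets 2864 were lower without WT spleen 3, 3533 without lymphoma 1 and 4454 without lymphoma 3, against 3947 on all arrays.

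**Figure D1:**
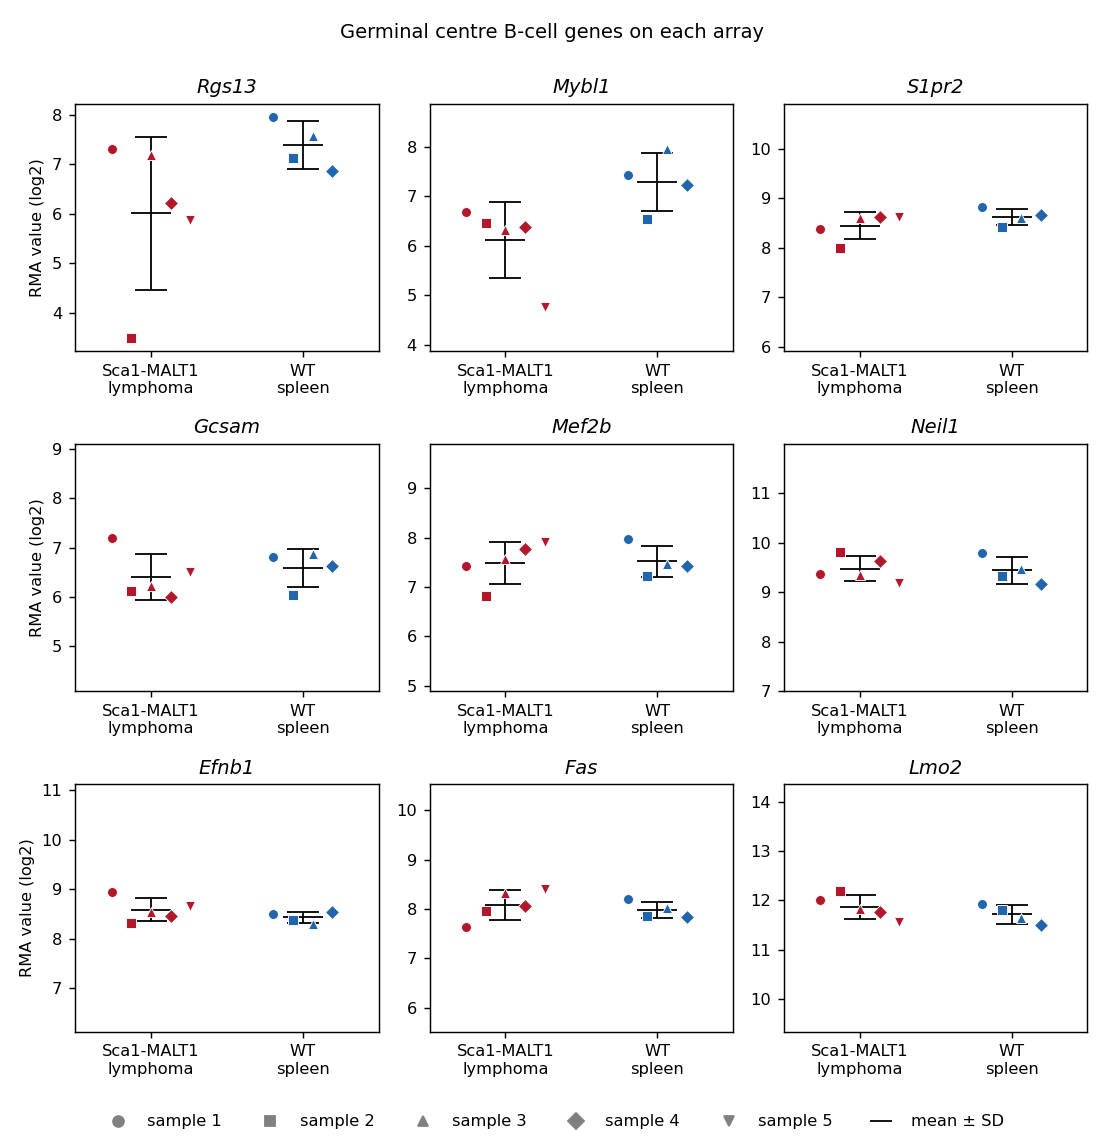
RMA values (log2, vertical axis) of the 9 genes on their highest-mean probe sets, with 1 marker per array, lymphomas in red and WT spleens in blue, and black bars for the mean ± SD (n = 5 and n = 4). Every panel spans the same range. Rgs13 and Mybl1 have the wide spreads, with lymphoma 2 at 3.48 for Rgs13 and lymphoma 5 at 4.77 for Mybl1, and the groups overlap in all 9 panels.

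The first group of members acts on where germinal centre B cells sit and how they signal. Rgs13 encodes a regulator that shortens G protein signals from chemokine receptors. On probe set 1442263_at it stood at 7.32, 3.48, 7.18, 6.22 and 5.87 in lymphomas 1 to 5, against 7.97, 7.13, 7.58 and 6.87 in WT spleens 1 to 4. Lymphomas 1 and 3 thus lay within the WT range, lymphomas 4 and 5 below it, and lymphoma 2 far below every other array. The means were 6.01 ± 1.55 in lymphomas (SD, n = 5) and 7.39 ± 0.49 in WT spleens (SD, n = 4). The difference was -1.37, with a 95% interval from -2.92 to 0.18 that includes no change (limma adjusted p = 0.418). The value of lymphoma 2 lay at the 1.53 percentile of all probe sets on its array, near the bottom of the scale, so no fold is given. Lymphoma 2 carried much of its size: without it the difference was -0.74 (limma adjusted p = 0.370). The pan B-cell score of lymphoma 2 was 0.13, the highest among the lymphomas and below all 4 WT spleens (0.16 to 0.26), and its part in the Rgs13 level was not tested.

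S1pr2 encodes the sphingosine phosphate receptor that confines B cells to the follicle centre. On probe set 1447880_x_at it had values of 8.38, 7.998, 8.61, 8.63 and 8.63 in lymphomas 1 to 5, against 8.82, 8.42, 8.61 and 8.67 in WT spleens. Lymphomas 1 and 2 lay below the WT range, and the other 3 lymphomas inside it. The difference was -0.18 ± 0.14 (SE), with a 95% interval from -0.50 to 0.14 (limma adjusted p = 0.625). Without lymphoma 2 it was -0.067, and without lymphomas 1 and 2 it was -0.0077. Its other probe set, 1428176_at, gave nearly the same difference, -0.18 ± 0.16 (SE), with lymphoma 2 alone below the WT range at 7.31, and -0.074 without that array.

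Gcsam encodes a signalling adaptor of germinal centre B cells that, in human cells, restrains migration. On probe set 1442582_at it stood at 7.19, 6.12, 6.23, 5.997 and 6.50 in lymphomas 1 to 5, against 6.80, 6.04, 6.87 and 6.64 in WT spleens. Lymphoma 1 was the highest of the 9 arrays and lymphoma 4 the lowest, so that the lymphomas enclosed the whole WT range. This probe set and 1420544_at gave the same picture, with differences of -0.18 (95% interval -0.75 to 0.39) and -0.19 (-0.82 to 0.43), and neither passed (limma adjusted p = 0.803 and 0.809). Single arrays moved these values: on 1442582_at the difference was -0.38 without lymphoma 1 and -0.078 without lymphoma 4, and on 1420544_at -0.39 and -0.027. The array with the lowest pan B-cell score, lymphoma 1, was thus the one with the most Gcsam.

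Transcriptional regulators made up the next group. Mybl1 encodes A-Myb, a Myb family factor of germinal centre B cells and of male germ cells. On probe set 1456951_at it stood at 6.68, 6.46, 6.33, 6.37 and 4.77 in lymphomas 1 to 5, against 7.43, 6.54, 7.97 and 7.22 in WT spleens. All but lymphoma 1 lay below the WT range, and lymphoma 1 exceeded only WT spleen 2. The means were 6.12 ± 0.77 in lymphomas (SD, n = 5) and 7.29 ± 0.59 in WT spleens (SD, n = 4). The difference was -1.17, or 2.25-fold lower in lymphoma, with a 95% interval from -2.07 to -0.27, and it did not pass after adjustment (limma adjusted p = 0.241). It was past the nominal threshold, with a limma unadjusted p = 0.0161. Without WT spleen 3 it was -0.94 (limma unadjusted p = 0.0543, adjusted p = 0.508). Without lymphoma 5 it was -0.83 (limma unadjusted p = 0.0117, adjusted p = 0.254).

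The other Mybl1 probe set, 1450481_at, read near the bottom of the arrays. It read between 3.29 and 3.52 in lymphomas and between 3.39 and 3.46 in WT spleens, and its values ranked in the lowest 0.488% to 1.87% of all probe sets on the arrays. Its difference was 0.035 (95% interval -0.12 to 0.19). The Mybl1 difference was thus measured on 1 probe set.

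Mef2b encodes a factor that, in human germinal centre B cells, helps to drive BCL6. On probe set 1421541_a_at it read 7.43, 6.81, 7.56, 7.76 and 7.91 in lymphomas 1 to 5, against 7.97, 7.22, 7.46 and 7.42 in WT spleens. Lymphoma 2 was the lowest array and WT spleen 1 the highest, and the group means differed by only -0.024 (95% interval -0.53 to 0.48, limma adjusted p = 0.978). The interval allows a change of up to 1.44-fold lower or 1.40-fold higher. A further probe set annotated to both Borcs8 and Mef2b was not used.

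Lmo2 encodes a LIM-domain adaptor that is a germinal centre marker in human tissue and also part of the transcription complex of red cell precursors and blood stem cells. On probe set 1454086_a_at it read 12.02, 12.20, 11.82, 11.76 and 11.56 in lymphomas 1 to 5, against 11.93, 11.80, 11.65 and 11.49 in WT spleens. Lymphomas 1 and 2 lay above the WT range and the other 3 inside it. The difference was 0.15 ± 0.14 (SE, 95% interval -0.16 to 0.46, limma adjusted p = 0.669). Erythroid genes are given beside it. The score of an erythroid list (the mean of its gene-centred log2 values, 9 of 10 genes measured) was 3.47 and 3.15 in lymphomas 1 and 2, between -2.39 and 0.19 in the other lymphomas, 0.33 in WT spleen 1 and between -1.55 and -1.32 in the other WT spleens. With the erythroid score as a covariate the Lmo2 difference was 0.0036 (limma adjusted p = 0.994), and without lymphomas 1 and 2 it was -0.0053 (limma adjusted p = 0.988). The 2 measures did not rank all arrays alike: lymphoma 4, lowest in erythroid score, had more Lmo2 than lymphoma 5 and WT spleens 3 and 4. The part of erythroid cells in the Lmo2 level was not tested.

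**Figure D2:**
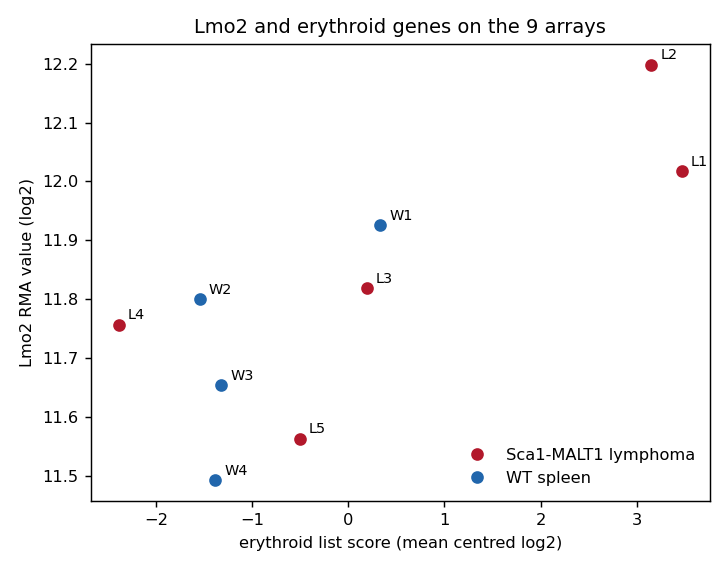
Lmo2 RMA value (log2, vertical axis) against the erythroid list score (mean of gene-centred log2 values, horizontal axis) on the 9 arrays, lymphomas in red (L1 to L5) and WT spleens in blue (W1 to W4). Lymphomas 1 and 2 stand apart at scores of 3.47 and 3.15 and hold the top Lmo2 values, and WT spleen 1 has the highest Lmo2 value of the WT spleens.

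The remaining members serve DNA repair, cell contact and cell death, and none differed in mean by more than 0.16. Neil1 encodes a DNA glycosylase of base excision repair. On probe set 1452871_at it read 9.37, 9.82, 9.36, 9.64 and 9.19 in lymphomas 1 to 5, against 9.80, 9.34, 9.46 and 9.17 in WT spleens. The groups covered almost the same range, with a difference of 0.034 (95% interval -0.32 to 0.39, limma adjusted p = 0.9497).

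Efnb1 encodes ephrin B1, a membrane ligand through which germinal centre B cells and follicular helper T cells meet. On probe set 1418286_a_at it read 8.94, 8.32, 8.54, 8.45 and 8.66 in lymphomas 1 to 5, against 8.497, 8.38, 8.30 and 8.54 in WT spleens. Lymphomas 1, 3 and 5 exceeded the WT range, lymphoma 3 by less than 0.01. The difference was 0.15 ± 0.12 (SE, 95% interval -0.12 to 0.43, limma adjusted p = 0.621), and its other probe sets gave 0.035 (1418285_at) and 0.016 (1451591_a_at).

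Fas encodes the death receptor that is high on germinal centre B cells and also on activated T cells. On probe set 1460251_at it read 7.64, 7.95, 8.32, 8.07 and 8.40 in lymphomas 1 to 5, against 8.19, 7.86, 8.03 and 7.84 in WT spleens. Lymphoma 1 lay below the WT range and lymphomas 3 and 5 above it. The difference was 0.094 (95% interval -0.25 to 0.44, limma adjusted p = 0.834). Single arrays moved it both ways, to 0.014 without lymphoma 5, 0.034 without lymphoma 3 and 0.20 without lymphoma 1, and it was 0.28 without lymphomas 1 and 2 (limma adjusted p = 0.276). T-cell list scores, from 9 of 10 genes measured, were -0.85 and -1.03 in lymphomas 1 and 2, between 0.15 and 0.35 in the other lymphomas, and between 0.12 and 0.49 in WT spleens, and the part of T cells in the Fas level was not tested.

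**Figure D3:**
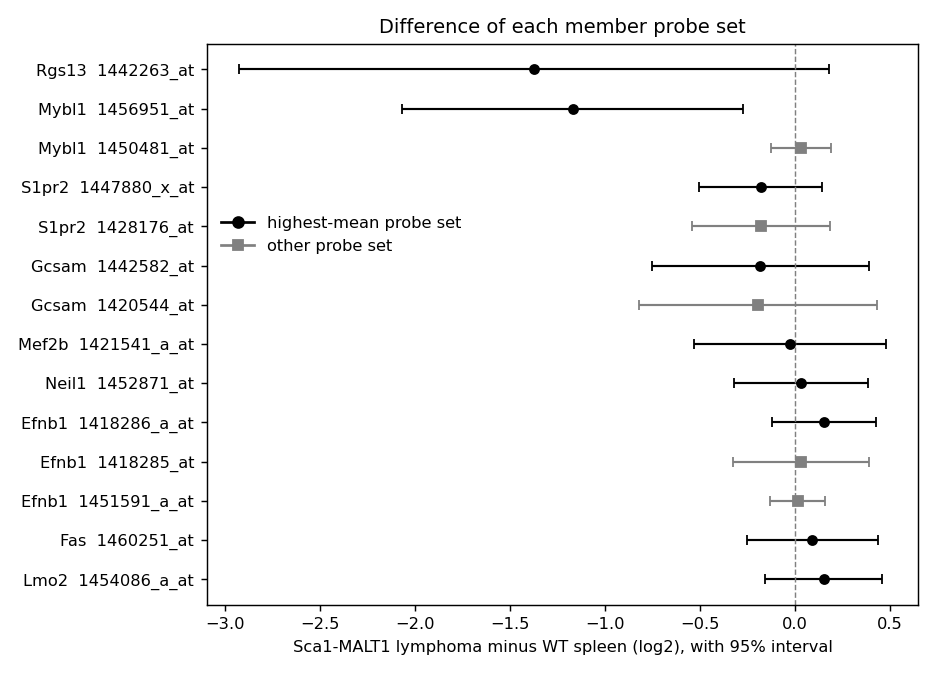
Lymphoma minus WT difference (log2, horizontal axis) of each of the 14 member probe sets with its 95% interval from limma, in black for the highest-mean probe set of a gene and in grey for the others. The interval of the Mybl1 probe set 1456951_at is the only one of the 14 that does not reach 0.

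Single lymphomas departed from the WT range in different members. Lymphoma 2 lay below the WT range for 4 of the 9 genes (Rgs13, Mybl1, S1pr2 and Mef2b) and above it for 2 (Neil1 and Lmo2). Over all genes 34.2% lay below and 29.3% above on that array, so the share of members below is read against a high background. Lymphoma 1 had 2 members below (S1pr2 and Fas) and 3 above (Gcsam, Efnb1 and Lmo2), where 37.5% of all genes were below and 30.6% above. Lymphoma 3 had 1 below (Mybl1) and 2 above (Efnb1 and Fas), against 24.7% and 25.1% of all genes. Lymphoma 4 had 3 below (Rgs13, Mybl1 and Gcsam) and 0 above, against 27.4% and 30.3%. Lymphoma 5 had 2 below (Rgs13 and Mybl1) and 2 above (Efnb1 and Fas), against 27.3% and 31.9%. Mybl1 was the member below the WT range in 4 of 5 lymphomas, and Rgs13 in 3 of 5.

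Several members also varied widely among the healthy spleens. Each member's SD was set beside that of all genes whose mean level lay within 1 log2 unit, a description chosen after the values were seen. Among WT spleens 5 of the 9 members (Mybl1, Rgs13, Gcsam, Mef2b and Neil1) had an SD above that of 90% of genes of like level, a place that 10% of genes hold by construction. The WT SD of Mybl1, 0.59, was above that of 99.3% of such genes, and that of Rgs13, 0.49, above 98.6%. Among lymphomas only 2 members were above 90%, Rgs13 (SD 1.55, above 98.9%) and Mybl1 (SD 0.77, above 94.9%). Efnb1 was ordinary in both groups, with 44.9% of like genes below its lymphoma SD and 47.6% below its WT SD.

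The same WT spleens were often at the ends of the WT range. WT spleen 1 held the highest WT value for 6 of the 9 members (Rgs13, S1pr2, Mef2b, Neil1, Fas and Lmo2), where it was highest for 20.8% of all genes. WT spleen 2 held the lowest WT value for Mybl1, S1pr2, Gcsam and Mef2b, 4 of 9, where it was lowest for 19.8% of all genes. WT spleen 4 was lowest for as many, Rgs13, Neil1, Fas and Lmo2, where it was lowest for 23.3% of all genes. The pan B-cell score differed little between these spleens, from 0.16 to 0.26. WT spleen 1 was also the WT spleen with the highest erythroid score, and the part of that in its member levels was not tested.

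B-cell content was read from a pan B-cell list (9 of 10 genes measured, such as Cd22 and Blk). All of its 9 genes were lower in mean in lymphomas, limma called 0, and 2 were lower past the nominal threshold, where 8.09% of all genes were lower and 6.79% higher. The median difference of the list was -0.43, against 0.0012 over all genes. Its score was -0.89 in lymphoma 1, between -0.16 and 0.13 in the other lymphomas and between 0.16 and 0.26 in WT spleens. Cd22, an inhibitory co-receptor, stood at 13.02 ± 0.43 in lymphomas (SD, n = 5) and 13.55 ± 0.09 in WT spleens (SD, n = 4), and the kinase gene Blk differed by -0.54 (limma adjusted p = 0.282 and 0.425).

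When each array was set against its own pan B-cell level, every difference shifted up by the same amount and the median of all probe sets moved from -0.010 to 0.37. On that scale Rgs13 stood at -0.99 and Mybl1 at -0.79, still below WT (limma adjusted p = 0.279 for each), whereas Gcsam was at 0.20, S1pr2 at 0.20 and Mef2b at 0.36, opposite in sign to their plain differences. Lmo2 was at 0.54, Efnb1 at 0.54 and Fas at 0.48, all within 0.2 of the shift of all probe sets. Relative to pan B-cell genes and to the WT mean, Rgs13 ranged from -3.83 in lymphoma 2 to 1.03 in lymphoma 1, and Gcsam from -0.38 in lymphoma 2 to 1.70 in lymphoma 1. In lymphomas 3 to 5 Gcsam was at -0.21, -0.37 and 0.28, so its positive mean rested on lymphoma 1. That array had the lowest pan B-cell score. S1pr2 was at 0.86 in lymphoma 1 and between -0.55 and 0.37 in the other lymphomas. No member was called on that scale.

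**Figure D4:**
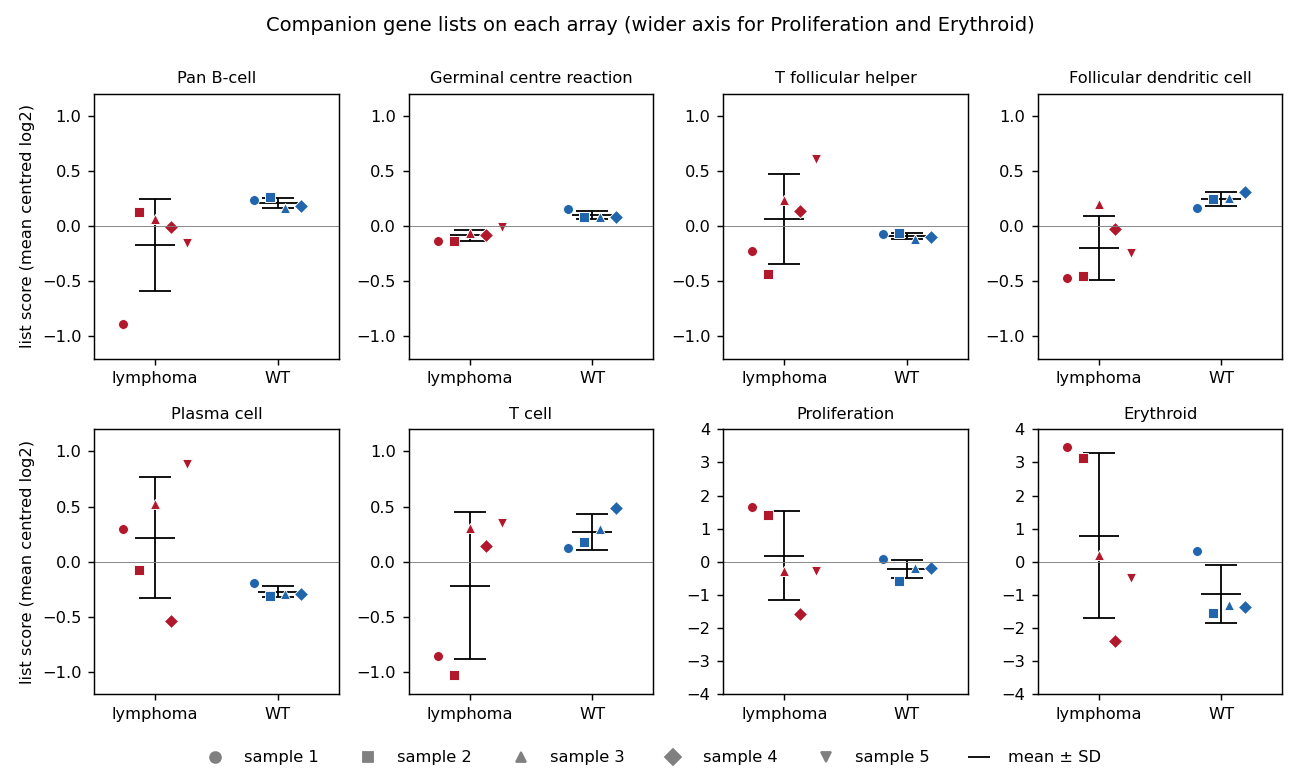
Scores of 8 companion gene lists (mean of gene-centred log2 values, vertical axis) on each array, lymphomas in red and WT spleens in blue, with black bars for the mean ± SD (n = 5 and n = 4). Proliferation and erythroid panels have a wider axis. The germinal centre reaction scores lie between -0.13 and -0.0090 in lymphomas and between 0.083 and 0.16 in WT spleens. The pan B-cell scores do not overlap either, between -0.89 and 0.13 in lymphomas and between 0.16 and 0.26 in WT spleens. Lymphomas 1 and 2 stand out on the erythroid, proliferation and T-cell lists.

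Other genes of the germinal centre reaction were described from a list of 30, of which 27 were analysed here. The list holds regulators, mutation and repair enzymes and follicle signals that do not belong to the 9 members. Limma called 0 of the 27, and 7 were lower and 1 higher past the nominal threshold, against 8.09% and 6.79% of all genes. Of the 27 differences 11 were positive and 16 negative, and their median was -0.15, against -0.43 for the pan B-cell list. Bach2, a repressor that holds B cells back from plasma cell fate, stood at 10.51, 10.53, 11.21, 11.21 and 10.99 in lymphomas 1 to 5, against 11.90, 11.88, 11.67 and 11.67 in WT spleens (difference -0.89, limma adjusted p = 0.0621). All 5 lymphomas were below all 4 WT spleens. The adaptor gene Stap1 differed by -0.80 (limma adjusted p = 0.115). Chosen after their values were seen, Bcl6, the master repressor of the germinal centre fate, differed by -0.65 (limma adjusted p = 0.106), the IL-21 receptor gene Il21r by -0.67 (0.0848), and the plexin gene Plxnb2, the one higher gene, by 0.46 (0.185).

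The partners of germinal centre B cells showed mixed values. Of 10 genes of follicular helper T cells limma called 0, 1 was lower and 1 higher past the nominal threshold, against 8.09% and 6.79% of all genes, and the median difference was 0.0061. Of the 10 differences 5 were positive and 5 negative, with Btla at -0.50 and Cxcr5 at -0.35 among the negative ones. Il21, the helper cytokine, read 7.07, 5.81, 7.61, 7.39 and 9.20 in lymphomas 1 to 5, against 6.61, 6.30, 6.27 and 6.06 in WT spleens. Lymphoma 5 was the highest array and lymphoma 2 the lowest, and the difference of 1.11 did not pass (limma adjusted p = 0.397). The receptor gene Pdcd1 differed by 0.72 (limma adjusted p = 0.405), with lymphoma 5 again highest at 9.42.

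Of 10 measured genes on the follicular dendritic cell list limma called 0, 3 were lower and 1 higher past the nominal threshold, against 8.09% and 6.79% of all genes, and the median difference was -0.40. Cr2, the complement receptor that these cells share with B cells, stood at 11.97 ± 0.71 in lymphomas (SD, n = 5) and 13.22 ± 0.06 in WT spleens (SD, n = 4), with all 5 lymphomas below all 4 WT spleens (limma adjusted p = 0.124). Fcer2a, which B cells also express, differed by -1.77 (limma adjusted p = 0.234).

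Plasma cells are one fate of germinal centre B cells. Of 10 plasma cell genes limma called 0, 3 were higher and 0 lower past the nominal threshold, against 6.79% and 8.09% of all genes, and the median difference was 0.52. Creld2, a chaperone of the secretory path, differed by 1.18 (limma adjusted p = 0.151) and the joining chain gene Jchain by 0.72 (0.353). The list score ran from -0.54 in lymphoma 4 to 0.88 in lymphoma 5, and from -0.31 to -0.20 in WT spleens. Lymphoma 5, the lowest array for Mybl1, had the highest list score, whereas Jchain was highest in lymphoma 1, at 14.35.

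Germinal centre B cells divide fast, so cell division genes are given beside the members. All 9 measured proliferation genes of 10 listed were higher in mean in lymphomas, with a median difference of 0.46. Limma called 0, and 0 were past the nominal threshold, where 6.79% of all genes were higher and 8.09% lower. Their score was 1.64 and 1.41 in lymphomas 1 and 2, between -1.58 and -0.28 in the other lymphomas and between -0.60 and 0.066 in WT spleens. Mki67 read 13.97 and 13.49 in lymphomas 1 and 2 and 10.04 in lymphoma 4, whereas Mybl1 was at 6.68, 6.46 and 6.37 in these arrays.

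The genes most like Rgs13, Mybl1 and Gcsam, the 3 members with the widest range, were found by the root mean square (RMS) difference of gene-centred log2 values over the 9 arrays. For Rgs13 these were Mir1931 (0.57), Lrrk2 (0.67), Lepr (0.67) and Slc7a2 (0.70), against an RMS of 1.27 for the variation of Rgs13 itself. For Mybl1 they were Dmxl1 (0.47), Tasor2 (0.48), Madcam1 (0.49) and Zfp51 (0.50), against 0.85 for Mybl1 itself. For Gcsam they were Plekha6 (0.17), Kctd12b (0.20), Hgfac (0.20) and Cuedc1 (0.23), against 0.39 for Gcsam itself. By its construction this measure weights most the array farthest from the mean, lymphoma 2 for Rgs13. It is also not scaled, so a member with a small range stays far from Rgs13 whatever its pattern. The closest member ranked 798 for Rgs13 (S1pr2), 1969 for Mybl1 (Gcsam) and 565 for Gcsam (Efnb1) among 18193 genes. These ranks do not show whether members vary together. Rgs13, S1pr2 and Mef2b shared their lowest array, lymphoma 2, and their highest, WT spleen 1. Neil1 and Lmo2 were both lowest in WT spleen 4 and highest in lymphoma 2.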

How the data were processed

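Biotin-labelled RNA copies were measured on 1-colour Affymetrix arrays (kits named in the labels). The deposited values are on the log2 scale and come from RMA, which the submitters' processing notes name without version or settings. RMA compresses differences near the background, and the number of arrays limits the precision. The values were used as deposited, with array medians between 6.88 and 6.97. The 64 control probe sets were left out and 45037 tested, two-sided and with no covariate, by the lmFit and eBayes functions of limma 3.58.1 (R 4.3.3). Gene symbols came from GEO's platform annotation, which can be old, and no probe set with several symbols was used.

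The members, lists and tests were chosen with earlier results of these data known. All members are named, and of each of 10 companion lists up to 4 called genes or else the 2 with the largest difference. A list has a gene's highest-mean probe set. Alternatives were other filters, normalizations, priors and tests, covariates, a block, a B-cell reference, and leaving out arrays. The fit was checked on simulated data. The main fit did not pair samples by replicate number. Deviations of same-numbered arrays from their group means had correlations of 0.099, -0.19, 0.15 and -0.038. Lymphomas 1 and 3 matched their same-numbered WT spleen best, and lymphomas 2 and 4 did not. These values cannot exclude a pairing or a shared batch. Python 3.11.15 and matplotlib 3.10.9 made the figures.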

Additional observations from a re-analysis of the deposited data

Results flagged for a closer look

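In 2 of 28 groups of values (14 member probe sets, each in lymphomas and in WT spleens) 1 array stood far from the others of its group, and about 1 in 20 groups is expected to do so by chance. Mybl1 on probe set 1456951_at was at 4.77 in lymphoma 5, and the gap to the nearest lymphoma was 0.817 of the range of the 5 lymphomas. The same array was the highest for the plasma cell list. Mybl1 on probe set 1450481_at was at 3.46 in WT spleen 1, a gap of 0.847 of the range of the 4 WT spleens, although these values span only 0.072 log2 units near the lowest values of the arrays.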

How the results depend on the processing

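No member probe set was called under any of the 22 alternatives. The count lower at an unadjusted p under 0.05, 1 as reported, was 0 with the dim filter (which removes Rgs13, Mybl1 and Gcsam) and with the B-cell reference, 2 with array weights and without lymphomas 1 and 2 together, and 0 to 2 with single arrays left out. The same count over all 45037 probe sets was 3947 as reported, 164 with the B-cell reference and 4559 with array weights. It was 4154 without lymphomas 1 and 2, and 2603 to 4454 with single arrays left out. With the dim filter it was 2770 of 22518. In the other direction, Fas was higher at that threshold without lymphomas 1 and 2 (0.279) and with the B-cell reference (0.477). Lmo2 was higher with the replicate block (0.230) and with the B-cell reference (0.536). Over all probe sets the count higher was 2320 as reported, 3496 without lymphomas 1 and 2, 7617 with the B-cell reference and 2032 with the replicate block. Over all probe sets the 219 calls became 5 with the replicate block, 821 with array weights, 935 without lymphomas 1 and 2, 130 with 1 probe set per gene, 0 with the unequal-variance test (5463 at an unadjusted p under 0.05) and, with 1 array left out, 0 without WT spleen 2 or 3, 18 without WT spleen 1, 14 without WT spleen 4, 48 without lymphoma 5 and 530 without lymphoma 2. With the B-cell reference 236 calls were higher and 13 lower, against 113 and 106 as reported, and without lymphomas 1 and 2 570 and 365. The replicate block, which takes lymphoma 5 out of the difference, gave -1.34 for Rgs13 and -0.83 for Mybl1 and changed no member's call. Of 297 recomputed member differences 267 kept their direction and 30 changed sign, none of these called. Rgs13 lay between -1.70 and -0.74 and Mybl1 (1456951_at) between -1.47 and -0.79. At an unadjusted p under 0.05, Mybl1 on this probe set was lower in 19 of its 21 alternatives and Rgs13 in 4 of 21.

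Sign changes, with the cause not tested: with the B-cell reference, which adds the same amount to all, S1pr2 0.204 and 0.205, Gcsam 0.203 and 0.189, Mef2b 0.359. With array weights Mef2b 0.026, Neil1 -0.074 and Efnb1 (1418285_at) -0.074. With the erythroid score as a covariate Mybl1 (1450481_at) -0.0056, Mef2b 0.133, Neil1 -0.035 and Efnb1 (1418285_at) -0.110. Without lymphomas 1 and 2 Mybl1 (1450481_at) -0.0061, Mef2b 0.227, Neil1 -0.045, Efnb1 (1418285_at) -0.119 and Lmo2 -0.0053. With the replicate block Efnb1 (1418285_at) -0.0095. With 1 array left out Mef2b ranged from -0.129 to 0.147, Neil1 from -0.056 to 0.153, Efnb1 (1418285_at) from -0.037 to 0.144 and, on 1451591_a_at, from -0.0074 to 0.054. No detection calls were used, and the lowest Rgs13 value and all values of Mybl1 on 1450481_at lay near the bottom of the arrays.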

Other observations

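Of 10 macrophage genes, another cell type of these tissues, limma called 6 higher and 0 lower in lymphoma, where 0.605% of all genes were called, with a median difference of 1.19. No probe set of the array was called without WT spleen 2 or 3, or with the unequal-variance test, these genes included. The complement gene C1qb stood at 12.10 ± 0.49 in lymphomas (SD, n = 5) and 9.70 ± 0.34 in WT spleens (SD, n = 4), C1qc differed by 2.34, C1qa by 1.93 and Hmox1 by 1.63 (limma adjusted p between 0.00993 and 0.0413). Of 10 endothelial genes limma called 0, 2 were higher and 1 lower before adjustment (p under 0.05), against 6.79% and 8.09% of all genes, and the median difference was 0.12. Stab2, a scavenger receptor of sinus endothelium, differed by 0.84 and the growth factor receptor gene Kdr by -0.45 (limma adjusted p = 0.317 and 0.569). Of 9 T-cell genes limma called 0, and 1 was lower before adjustment, against 8.09% of all genes. The median difference was -0.45, Cd247 at -0.76 and Cd3d at -0.75 (0.493 and 0.448). Of 9 erythroid genes limma called 0, and 0 passed before adjustment, where 6.79% of all genes were higher and 8.09% lower. The median difference was 1.92, Rhag at 2.36 and Alas2 at 2.13 (0.485 and 0.462). Among proliferation genes Ccna2 differed by 0.74 and Mki67 by 0.54 (0.682 and 0.780).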
